A study of Mus musculus with 9 samples.

Results

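Kidney RNA of mice in which Pkd2 and Ift88 had been knocked out together (double knockout, DKO) was compared with that of wild type (WT) mice. The comparison takes in 6 of the 9 libraries of the series, 3 DKO and 3 WT, each from a separate mouse. It covers the 15740 of 22161 gene rows whose mean normalized count over all 9 libraries was at least 10. The DKO genotype is given as Ift88fl/fl;Pkd2fl/fl;Pax8rtTA;TetO-cre. The WT mice are labelled as wild type only, so whether they carried floxed alleles or transgenes is not stated. The other 3 mice, Pkd2fl/fl;Pax8rtTA;TetO-cre (Pkd2 knockout), entered the fit because the 3 groups share one estimate of the spread, and their values are given beside those of DKO and WT. Every mouse was C57BL/6, drank doxycycline (2 mg/ml) from postnatal day 28 on over 2 weeks, and gave its kidney at 10 weeks of age (postnatal day 70). Single mice are written as WT 1 to 3, KO 1 to 3 (Pkd2 knockout) and DKO 1 to 3.

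Pkd2 encodes polycystin-2, a cation channel that works with polycystin-1 in the primary cilium and the endoplasmic reticulum, and its mutation causes autosomal dominant polycystic kidney disease. Ift88 encodes a subunit of the intraflagellar transport machinery, without which cilia are not built. In mouse kidneys, cysts that follow the loss of polycystins grow more slowly when cilia are lost too. The transactivator driven by Pax8 is active in tubular epithelium, where doxycycline lets it switch on cre, so the vessels, stroma and immune cells of these kidneys would keep both genes. The comparison asks how a kidney in which both genes were targeted in tubular epithelium differs from a wild type one. Polycystin-2 protein and cilia were not measured in these RNA data.

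Each library had a normalized total between 40454151 and 42874467, and mitochondrially encoded genes took 9.21 to 10.8% of it. Markers of kidney were abundant in all 9 libraries, among them Lrp2 of the proximal tubule (153377 to 186084 normalized counts), Umod of the thick ascending limb (69605 to 173515), Aqp2 of principal cells (7070.3 to 14226) and Nphs1 of podocytes (821 to 1151). WT 3 stood apart from WT 1 and WT 2. On the second principal component, which held 16.4% of the variance, WT 3 lay at -32.4 and the other WT mice at 26.0 and 30.2. WT 3 also carries another prefix in its mouse name than WT 1 and WT 2, and all DKO names share a prefix of their own. No prefix is shared by DKO and WT mice, so between these groups prefix and genotype cannot be told apart.

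Few genes passed the threshold between DKO and WT kidneys. Among the losses were 3 neighbouring glucuronosyltransferase rows (Ugt1a8, Ugt1a9 and Ugt1a10) and the kallikrein Klk1b22, at 3.19% or less of their WT mean. A group of genes on chromosome 14, the chromosome of Ift88, moved in both directions. Erlin1, Agpat9 and Slco4c1 were among the genes that rose, and Ckb, Ndrg2 and Blvrb among those that fell. In limma's test 36 of 15740 genes passed at a Benjamini-Hochberg adjusted p below 0.05, which is 0.229%; 12 rose (0.0762%) and 24 fell (0.152%). The values of WT and DKO did not overlap in any of the 36, as was the case for 18.3% of all tested genes. At an unadjusted p below 0.05 there were 1847 genes, 11.7% of those tested. In the same fit 0.394% of genes passed between DKO and Pkd2 knockout (0.127% higher and 0.267% lower in DKO) and 2.4% between Pkd2 knockout and WT (1.14% higher and 1.25% lower). The median log2 fold change of all tested genes was -0.001, and of the called genes 7 rose and 17 fell by more than 1 on that scale. To account for all 36, the called genes with clone or model names, Ifi202b, Sik1, Morn4, Klhdc8a, Sc4mol, Ppp1r1b and Gpx1 are named although the naming rule does not take them, and so after their values were seen. In whole-kidney RNA, fewer cells of a type and less RNA per cell cannot be told apart.

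**Figure D1:**
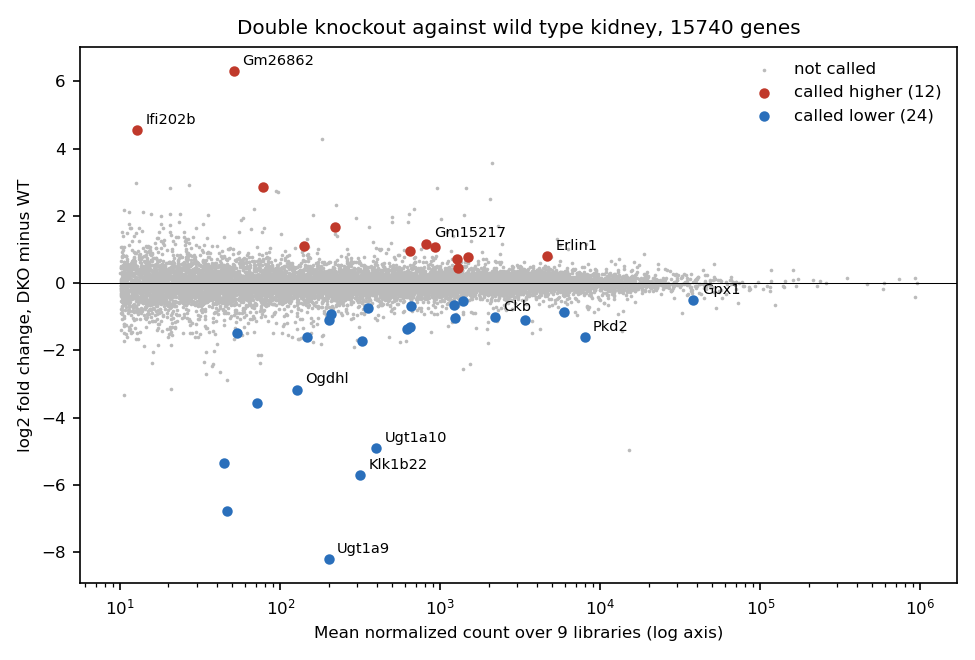
Log2 fold change of DKO against WT (vertical axis, on the log2(normalized count + 1) scale) plotted against the mean normalized count over 9 libraries (horizontal log axis) for 15740 genes. Red and blue points are the 12 genes called higher and the 24 called lower; Ugt1a9 lies lowest at -8.20 and Gm26862 highest at 6.29.

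The count depended on the libraries. It was 18 without WT 1, 20 without WT 2, 18 without DKO 1 and 58 without WT 3, and 25 of the 36 genes were among those 58. Of the 36, 15 passed without any one of the 9 libraries, and the other 21 are given below with the libraries on which they rest. edgeR, run on the reads of the 7 libraries for which whole reads could be recovered, called 10 genes (0.0635% of those tested, with 0.0191% higher and 0.0445% lower), all of them among the 36. DESeq2 on the same 7 libraries called 111 (0.765% of 14517 genes with an adjusted p, with 0.324% higher and 0.441% lower), including 35 of the 36.

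**Figure D2:**
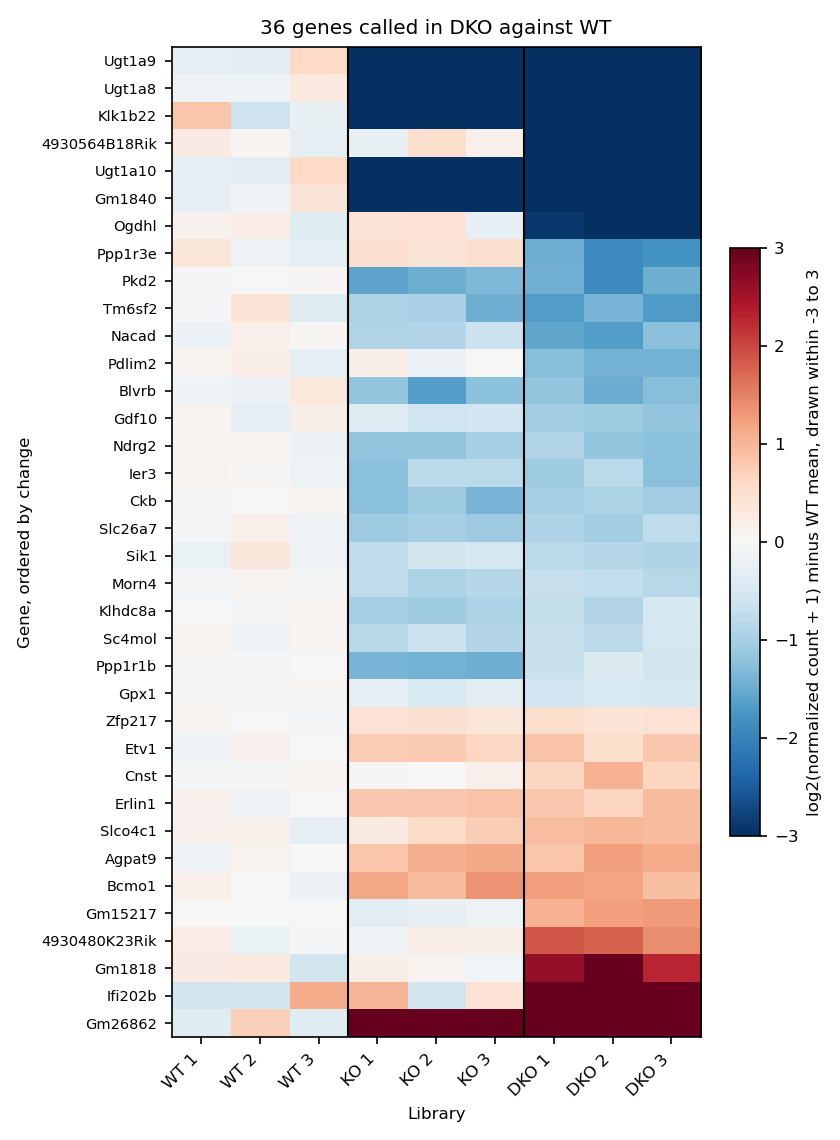
The 36 called genes (rows, ordered by log2 fold change of DKO against WT) in the 9 libraries (columns). Colour gives log2(normalized count + 1) minus the WT mean of the gene, drawn within -3 to 3; the 3 DKO columns are blue in the 24 lower genes and red in the 12 higher genes, and the KO columns differ from DKO in rows such as Ogdhl, Pdlim2 and Gm15217.

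The deepest losses were in the Ugt1a cluster on chromosome 1, in which alternative first exons are joined to shared later exons to make enzymes that attach glucuronic acid to bilirubin, hormones and drugs. RefSeq places the starts of Ugt1a10, Ugt1a9, Ugt1a8 and Ugt1a7c in that order on the plus strand of GRCm38.p6. Their promoters (250 bases before to 50 after each start) are shown because the first 3 of these rows were lost while the fourth was not. The windows are chr1:88055161-88055460, chr1:88070529-88070828, chr1:88087578-88087877 and chr1:88094751-88095050, and capitals mark GTTAAT or its reverse complement ATTAAC, a core of the site bound by the HNF1 factors.
Ugt1a10: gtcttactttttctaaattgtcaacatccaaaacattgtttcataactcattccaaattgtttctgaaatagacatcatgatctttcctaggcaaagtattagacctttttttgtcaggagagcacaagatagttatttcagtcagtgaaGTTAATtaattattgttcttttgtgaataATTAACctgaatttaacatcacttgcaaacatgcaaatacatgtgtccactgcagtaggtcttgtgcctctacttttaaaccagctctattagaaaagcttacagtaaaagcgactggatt
Ugt1a9: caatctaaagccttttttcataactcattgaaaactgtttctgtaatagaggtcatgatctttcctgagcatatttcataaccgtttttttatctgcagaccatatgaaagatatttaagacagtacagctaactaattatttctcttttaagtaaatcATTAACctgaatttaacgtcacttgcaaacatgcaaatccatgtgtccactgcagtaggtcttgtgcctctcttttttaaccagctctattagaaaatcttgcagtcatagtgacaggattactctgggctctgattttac
Ugt1a8: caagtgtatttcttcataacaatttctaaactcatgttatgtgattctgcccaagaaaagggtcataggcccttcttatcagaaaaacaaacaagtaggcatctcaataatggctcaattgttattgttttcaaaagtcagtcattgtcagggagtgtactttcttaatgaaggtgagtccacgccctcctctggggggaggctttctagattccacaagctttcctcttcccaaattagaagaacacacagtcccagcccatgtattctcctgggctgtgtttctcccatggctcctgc
Ugt1a7c: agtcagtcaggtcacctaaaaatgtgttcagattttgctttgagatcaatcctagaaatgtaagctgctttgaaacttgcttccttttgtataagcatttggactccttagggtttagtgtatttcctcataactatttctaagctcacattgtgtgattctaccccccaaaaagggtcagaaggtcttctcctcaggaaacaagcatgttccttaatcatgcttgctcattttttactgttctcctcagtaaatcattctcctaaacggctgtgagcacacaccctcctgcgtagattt

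In global alignments that allow gaps, the Ugt1a10 and Ugt1a9 windows matched at 229 of 300 bases (76.3%). The other pairs of these 4 windows matched at 50.3 to 55.0%. The share that unrelated windows reach in such an alignment was not measured. The motif was found 2 times for Ugt1a10, 1 time for Ugt1a9 and 0 times for Ugt1a8 and Ugt1a7c; 7.1% of 32851 RefSeq promoter windows of this length hold it on either strand. A match is a description of the letters and shows no binding.

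Ugt1a10 was 878, 865 and 1629.5 normalized counts in WT 1, 2 and 3 and 34.6, 47.1 and 25.9 in DKO 1, 2 and 3. Ugt1a9 was 472, 463 and 868 in WT and 1.02, 2.72 and 0 in DKO. Ugt1a8 was 124, 123 and 168 in WT and 1.02, 0 and 0 in DKO. All 3 DKO mice were far below all WT mice in each row, and WT 3 was the highest of the WT mice. The log2 fold changes were -4.91 ± 0.37, -8.20 ± 0.66 and -6.77 ± 0.54 (SE; limma adjusted p of 0.000843, 0.000988 and 0.000988). The 3 DKO libraries held 4 reads of Ugt1a9 and 1 read of Ugt1a8 in all. The WT mean was 483 times the DKO mean for Ugt1a9 (95% interval 188 to 1771) and 407 times for Ugt1a8 (73.0 to 16070.1), where the exact Poisson interval covers counting error in the low group only. The Pkd2 knockout mice, at 37.7, 39.2 and 17.5 for Ugt1a10 and 2.98, 0 and 0 for Ugt1a9, were at levels like those of DKO, with limma adjusted p of 0.914 and 0.933 between the mutant groups.

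Ugt1a7c, the row with the highest count in the cluster, was 5869, 5721 and 2787 in WT and 10876, 8618 and 11426 in DKO and did not pass (log2 fold change 1.17 ± 0.27, limma adjusted p = 0.147). DESeq2 on the 7 libraries called it higher (log2 fold change 1.28, adjusted p = 0.00225). Its groups did not overlap, with WT 3 the lowest. The summed counts of the 3 lost rows were 1473, 1451 and 2665 in WT and 36.6, 49.8 and 25.9 in DKO. Those of the other 6 Ugt1a rows were 6245, 6191 and 3370.1 in WT and 11244, 8888.5 and 11645 in DKO. How reads from the shared exons were assigned or set aside is not stated, so the split between these rows is uncertain.

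Klk1b22 encodes a tissue kallikrein, a secreted serine protease. It was 1495, 544 and 716 in WT and 17.3, 14.5 and 13.4 in DKO, a log2 fold change of -5.71 ± 0.59 (limma adjusted p = 0.00472), and no DKO mouse came near the lowest WT mouse, WT 2. The Pkd2 knockout mice had 9.93, 14.95 and 1.95. Its relative Klk1, the main kidney kallikrein, was 24110.3, 30325 and 44126 in WT and 34935, 51826 and 27014 in DKO, with overlapping groups (log2 fold change 0.20 ± 0.27, limma adjusted p = 0.825). Klk1b genes are close paralogs, and how reads that fit several of them were treated is not stated either. Of the 8 tested members of the Klk1 cluster 1 was called, and of the 8 tested Ugt1a rows 3. Gm1840, a gene model on chromosome 8, fell from 154, 171 and 241 in WT to 10.2, 16.3 and 19.2 in DKO (log2 fold change -3.56, limma adjusted p = 0.00333; 12.9, 6.54 and 12.7 in Pkd2 knockout).

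Of the targeted genes, Pkd2 was 13768, 14013 and 14505 in WT, 4723, 5083 and 5549 in Pkd2 knockout and 5181, 3777 and 5102 in DKO. No mutant mouse came near the lowest WT value, and the fall in DKO passed (log2 fold change -1.60 ± 0.12, limma adjusted p = 0.000843). Ift88 was 1132, 1067 and 1056 in WT, 1121, 1086 and 1214 in Pkd2 knockout and 735, 691 and 831 in DKO. The DKO mice had the 3 lowest values of Ift88, but the difference from WT missed the threshold (log2 fold change -0.53 ± 0.09, unadjusted p = 0.000184, limma adjusted p = 0.0617). Reads from exons that were not deleted still count, and cells outside the tubules keep both genes, so these levels do not give the share of cells that lost them.

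Among genes of energy and redox metabolism, Ckb, Blvrb and Gpx1 fell. Ckb, the brain-type creatine kinase that buffers ATP, was 3270.1, 3445 and 3544 in WT and 1699, 1774 and 1647 in DKO, a log2 fold change of -1.002 ± 0.09 (limma adjusted p = 0.00223). Blvrb, a biliverdin and flavin reductase, was 976, 944 and 1335 and 472, 384 and 441, a log2 fold change of -1.31 ± 0.17 (adjusted p = 0.0212). Gpx1, a selenium-dependent glutathione peroxidase, was 46888, 43832 and 47182 and 30615, 33254 and 32714, a log2 fold change of -0.51 ± 0.08 (adjusted p = 0.0432). No DKO mouse reached the lowest WT mouse in these 3 genes either, and the change of Gpx1 was the smallest of the 24 falls. In Pkd2 knockout these genes were 1423, 1643 and 1289.6, 475, 340.1 and 457 and 38167, 33396 and 37055, with limma adjusted p against WT of 0.000514, 0.00690 and 0.0558. Ckb passed without any one library. Blvrb was not called without WT 1, WT 2 or any one DKO mouse (highest adjusted p of 0.0872), nor Gpx1 without any 1 of the 9 libraries (0.251).

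Among signalling genes, Ndrg2, Ier3, Sik1 and Ppp1r1b fell. Ndrg2, a differentiation-associated protein of the N-myc downstream-regulated family, was 5503, 5598 and 4615 in WT and 2795, 2347 and 2234 in DKO (log2 fold change -1.09 ± 0.11, limma adjusted p = 0.00386). Ier3, an immediate early gene that modulates apoptosis, was 1984, 1884 and 1651 and 871, 1039 and 771 (-1.05 ± 0.15, adjusted p = 0.0367). Sik1, a salt-inducible kinase, was 6962, 10145 and 7216 and 4543, 4429 and 4202 (-0.86 ± 0.14, adjusted p = 0.0497). No DKO mouse reached the lowest WT mouse in these 3 genes, and WT 2 was the highest mouse for Sik1. Ppp1r1b encodes DARPP-32, an inhibitor of protein phosphatase 1 that protein kinase A switches on, and was 2079, 1979.8 and 1999 in WT, 769, 752 and 725 in Pkd2 knockout and 1266, 1525 and 1388 in DKO. Its DKO values lay between those of the other groups and overlapped neither: the log2 fold change was -0.54 ± 0.08 against WT (limma adjusted p = 0.0403) and 0.89 against Pkd2 knockout (adjusted p = 0.00272). Ndrg2 passed without any one library. Ier3 was not called without WT 1, WT 2, KO 2, DKO 1 or DKO 3 (highest adjusted p of 0.199). Sik1 was lost without any one library other than WT 2 (0.171), and Ppp1r1b without any one library other than KO 3 or DKO 2 (0.247).

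Among genes of lipid handling and transport, Tm6sf2, Sc4mol and Slc26a7 fell. Tm6sf2, a membrane protein needed for the export of lipid-rich lipoproteins, was 236, 319 and 186 in WT and 74.3, 91.5 and 73.8 in DKO (log2 fold change -1.59 ± 0.23, limma adjusted p = 0.0367). Sc4mol (now Msmo1), a methyl sterol oxidase of cholesterol synthesis, was 1709, 1544 and 1711 and 1045, 961 and 1140.4 (-0.66 ± 0.09, adjusted p = 0.0367). Slc26a7, an anion exchanger of intercalated cells, was 299, 343 and 282 and 162, 149.5 and 179 (-0.91 ± 0.13, adjusted p = 0.0319). The Pkd2 knockout mice were also below every WT mouse in these 3 genes, at 126, 122 and 86.8, 933, 1051 and 894 and 143, 152 and 144. Nacad, related to the nascent polypeptide-associated complex, the kelch-domain gene Klhdc8a and Morn4 fell by 1.49, 0.69 and 0.75 on the log2 scale (limma adjusted p of 0.0255, 0.0495 and 0.0212). Each of these 6 calls was lost without WT 1, WT 2, DKO 1 or DKO 2. Tm6sf2 and Morn4 were also lost without DKO 3, Nacad, Sc4mol and Klhdc8a without WT 3, all but Morn4 without KO 1, all but Morn4 and Sc4mol without KO 2, and Klhdc8a without KO 3. These leave-one-out fits gave a highest adjusted p of 0.182 for Tm6sf2, 0.199 for Sc4mol, 0.168 for Slc26a7, 0.165 for Nacad, 0.247 for Klhdc8a and 0.146 for Morn4.

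Genes that rose included 2 enzymes of lipid metabolism and a regulator of the endoplasmic reticulum. Erlin1, which marks lipid-raft-like domains of that membrane and takes part in degrading activated inositol trisphosphate receptors, was 3398, 2848 and 3037 in WT and 5382, 4794 and 5936 in DKO (log2 fold change 0.79 ± 0.09, limma adjusted p = 0.00931). Agpat9 (now Gpat3), a glycerol-3-phosphate acyltransferase that starts triglyceride synthesis, was 505, 585 and 543 and 975, 1273 and 1177 (1.06 ± 0.12, adjusted p = 0.00931). Bcmo1 (now Bco1), which cleaves beta-carotene to retinal, was 86.4, 78.9 and 68.6 and 186, 177 and 146 (1.11 ± 0.17, adjusted p = 0.0432). The lowest DKO mouse exceeded the highest WT mouse by more than the range of the WT mice in each. In Pkd2 knockout their values were 5403, 5433 and 5564, 964, 1142 and 1190.2 and 171, 150.4 and 199, with limma adjusted p against WT of 0.00425, 0.00545 and 0.0130. Erlin1 was not called without WT 2 or DKO 1 (highest adjusted p of 0.0588), Agpat9 without WT 1 (0.0674), and Bcmo1 without any one library other than KO 3 (0.186).

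Slco4c1, an organic anion transporter of the proximal tubule, was 480.1, 489 and 362 in WT, 529, 646 and 739 in Pkd2 knockout and 838, 885 and 844 in DKO. The 3 DKO mice were the highest of the 9 (log2 fold change against WT 0.96 ± 0.15, limma adjusted p = 0.0486). The transcription factor genes Etv1, of the ETS family, and Zfp217, a zinc finger protein, rose by 0.73 ± 0.11 and 0.45 ± 0.07 on the log2 scale (adjusted p of 0.0438 and 0.0403), and Zfp217 was the smallest called change. Gm26862, a gene model on chromosome 7, was 0, 1.13 and 0 in WT, 48.7, 56.1 and 44.8 in Pkd2 knockout and 73.3, 97.9 and 139 in DKO. The WT libraries held 1 read of it, and the DKO mean was 275 times the WT mean (95% Poisson interval 49.4 to 10869, counting error in WT only; limma adjusted p = 0.000554). Slco4c1 was called only without KO 1 or KO 3 (highest adjusted p of 0.172), Etv1 only without KO 3 or DKO 2 (0.234), and Zfp217 only without KO 3 (0.199).

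In another group of called genes the Pkd2 knockout mice lay near WT and the DKO mice apart from both. Cnst encodes consortin, which binds connexins and aids their sorting to the cell surface, and was 1143, 1158 and 1244 in WT, 1213, 1189 and 1307 in Pkd2 knockout and 1837, 2430.3 and 1833 in DKO. Its log2 fold change was 0.77 ± 0.11 against WT (limma adjusted p = 0.0372) and 0.71 against Pkd2 knockout (adjusted p = 0.0409). Ifi202b, an interferon-inducible gene of the p200 family, was 0, 0 and 2.18 in WT, 1.99, 0 and 0.975 in Pkd2 knockout and 18.3, 53.5 and 37.4 in DKO. The WT libraries held 2 reads of it, and the DKO mean was 50.1 times the WT mean (95% Poisson interval 13.9 to 414, counting error in WT only; limma adjusted p = 0.0403). Gm1818, a gene model on chromosome 12, was 27.1, 28.2 and 15.2 in WT, 25.8, 24.3 and 21.4 in Pkd2 knockout and 148, 299.9 and 115 in DKO (log2 fold change 2.87 ± 0.37, adjusted p = 0.0212). DKO 2 was the highest mouse in all 3 genes. Cnst was called only without KO 3, DKO 2 or DKO 3 (highest adjusted p of 0.199), Ifi202b only without WT 3 (0.199), and Gm1818 was lost without WT 1, WT 2 or DKO 1 (0.0771).

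Most other called genes with this pattern lie on chromosome 14, which carries Ift88. Of 530 tested genes on that chromosome 8 were called (1.51%), against 28 of 15037 on all others (0.186%). Chromosome 1 had the next highest share, with 7 of 901 called (0.777%), among them Cnst, Ifi202b and the 3 lost Ugt1a rows. At an unadjusted p below 0.05 there were 110 (20.8%), and the next highest autosome by that share was chromosome 1 with 17.2%. These shares are a description with no test. The DKO mice carry a floxed Ift88 allele that the labels of the other groups do not name, so loss of Ift88 and the chromosome segment around that allele cannot be told apart.

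Ogdhl, an oxoglutarate dehydrogenase-like enzyme, was 181, 194 and 127 in WT, 219, 224 and 138 in Pkd2 knockout and 21.4, 19.9 and 12.5 in DKO. Ppp1r3e, which targets protein phosphatase 1 to glycogen, was 460.0, 336 and 298, 511, 471 and 498 and 130.2, 94.2 and 103 in the same order. Pdlim2, a PDZ and LIM domain protein that promotes degradation of nuclear factor kappa B, was 807, 881 and 638, 873, 685 and 765 and 314, 288 and 286. All DKO mice were below all 6 other mice in these 3 genes. The log2 fold changes against WT were -3.16 ± 0.28, -1.72 ± 0.18 and -1.37 ± 0.14 (limma adjusted p of 0.00208, 0.00472 and 0.00386), and those against Pkd2 knockout were -3.37, -2.18 and -1.38 (adjusted p of 0.00162, 0.00162 and 0.00565). 4930564B18Rik was 74.3, 64.2 and 50.1 in WT and 52.6, 89.7 and 69.2 in Pkd2 knockout, and DKO held 2 reads in all. The WT mean was 101 times the DKO mean (95% Poisson interval 28.01 to 835, counting error in DKO only; limma adjusted p = 0.000710).

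Gm15217 and 4930480K23Rik moved the other way. Gm15217 was 599, 593 and 589 in WT, 479, 502 and 535 in Pkd2 knockout and 1218, 1385 and 1429.8 in DKO, a log2 fold change of 1.17 ± 0.09 (limma adjusted p = 0.000843). 4930480K23Rik was 147, 108 and 122, 115, 144 and 143 and 453, 424 and 329.7, a log2 fold change of 1.67 ± 0.18 (adjusted p = 0.00472). In both, every DKO mouse exceeded every other mouse. Gdf10, a ligand of the TGF-beta superfamily also called BMP3b, was 292, 232 and 316 in WT, 214, 184 and 187 in Pkd2 knockout and 133, 132 and 124 in DKO, with adjusted p of 0.0212 against WT and 0.147 against Pkd2 knockout. The Gdf10 call was lost without WT 1 or any one DKO mouse (highest adjusted p of 0.140). Ndrg2, described above, is the eighth called gene of the chromosome, and its Pkd2 knockout values (2284, 2296 and 2596) were like those of DKO.

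**Figure D3:**
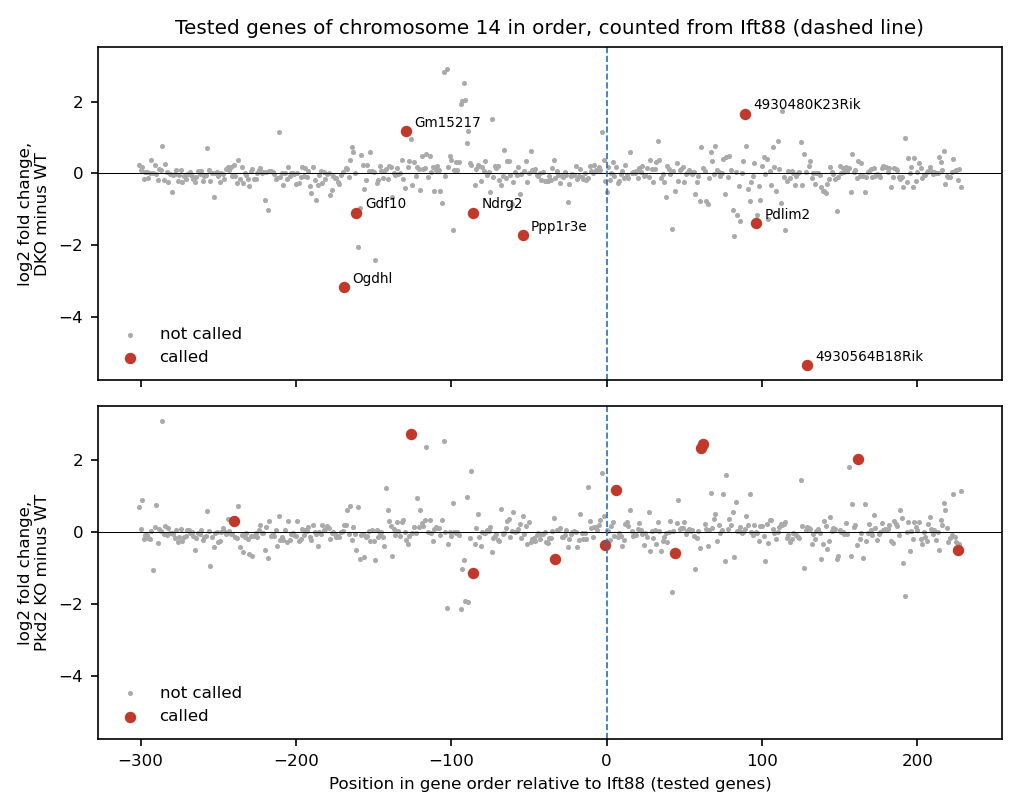
Tested genes of chromosome 14 in gene order, counted from Ift88 at 0 (horizontal axis), with the log2 fold change against WT of DKO (upper panel) and of Pkd2 knockout (lower panel). Red points passed limma's test in that comparison; the 8 red points of the upper panel lie from position -169 (Ogdhl) to 129 (4930564B18Rik), while tested genes run from -301 to 228.

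Counted in tested genes from Ift88, called genes of chromosome 14 lay at -169 (Ogdhl), -161 (Gdf10), -129 (Gm15217), -86 (Ndrg2) and -54 (Ppp1r3e). On the other side they lay at 89 (4930480K23Rik), 96 (Pdlim2) and 129 (4930564B18Rik). Ppp1r3e, at -54, was the nearest to Ift88. Some genes of the chromosome differed by more than 2 on the log2 scale and were not called. Rnase4, a secreted ribonuclease, was 272, 1196 and 1602 in WT, 403, 545 and 479.6 in Pkd2 knockout and 5527, 4724 and 3733 in DKO, and its neighbour Ang, angiogenin, was 26.1, 131 and 153, 29.8, 49.5 and 41.9 and 401, 321 and 290.4. WT 1 was much lower than WT 2 and WT 3 in both, and the log2 fold changes of 2.51 ± 0.54 and 2.03 ± 0.57 did not pass (limma adjusted p of 0.130 and 0.225); DESeq2, on the 7 libraries that leave out WT 1, called both (adjusted p of 4.23e-14 and 0.000528). Grid1, a glutamate receptor subunit, was 86.4, 75.5 and 34.8 in WT and 13.2, 7.25 and 12.5 in DKO (limma adjusted p = 0.0974; 0.0458 without WT 3). These 3 genes, and those of the next paragraph, were chosen after their values were seen.

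Of all tested genes, 43 differed by more than 2 on the log2 scale without passing. The groups of 28 of them did not overlap, against 18.3% of all tested genes. Choosing genes by the size of this difference favours separate groups, so that count supports nothing. WT 3 set the spread in some of the 43. Ugt2b38, another glucuronosyltransferase, was 23900.3, 25149.8 and 5.44 in WT, 46755, 19231 and 19682 in Pkd2 knockout and 77.3, 46.2 and 33.5 in DKO, so that WT 3 and the DKO mice had almost none of a transcript abundant in the other 5 mice (limma adjusted p = 0.508; 0.000493 without WT 3). Cpn1, the catalytic subunit of carboxypeptidase N, was 554, 643 and 67.5 in WT and 2131, 2220.1 and 1894 in DKO (adjusted p = 0.171; 0.00736 without WT 3). Aldh1a7, an aldehyde dehydrogenase, was 158, 223 and 2396 in WT and 1564, 1509.7 and 2506 in DKO, with WT 3 at the DKO level (adjusted p = 0.410; 0.0269 without WT 3). Havcr1, which encodes the tubular injury marker KIM-1, was 494, 494 and 163 in WT, 146, 528 and 65.3 in Pkd2 knockout and 53.9, 31.7 and 57.5 in DKO. All DKO mice were below all WT mice for Havcr1, with a log2 fold change of -2.86 ± 0.70 (limma adjusted p = 0.167; 0.126 without WT 3).

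Of 966 tested members of 54 gene lists of pathways and cell types, 6 were called (0.621%, against 0.229% of all genes): Ugt1a8, Ugt1a9, Ugt1a10, Klk1b22, Sc4mol and Ier3. The first 4 come from clusters that were listed with their earlier results known, so their count supports nothing. In the other 50 lists limma called 0, edgeR called 0, and DESeq2 on 7 libraries called a member in 11 of them. The lists below are therefore described by the direction of their means and by the count at an unadjusted p below 0.05 (5.93% of all genes higher, 5.81% lower). For many of them the count of members whose groups did not overlap is added (9.1% of all genes higher, 9.24% lower). Members named because DESeq2 called them were chosen after their values were seen.

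Mitotic genes had higher means than in WT, but none passed. Of 26 members of the mitosis and G2/M list, which drive entry into and passage through cell division, limma, edgeR and DESeq2 called 0, 7 were higher at an unadjusted p below 0.05 and the groups of 3 did not overlap. Their median log2 fold change was 0.51, with 25 of 26 means higher. Mki67, the proliferation marker Ki-67, was 202, 146 and 150.2 in WT, 969, 1166 and 1177 in Pkd2 knockout and 165, 277 and 431 in DKO. Top2a, a topoisomerase of dividing cells, had means of 119.6 ± 14.1 in WT, 650.3 ± 95.2 in Pkd2 knockout and 181 ± 67.2 in DKO (SD, n = 3), and Nusap1, of the spindle, was 217, 186 and 71.8, 219, 316 and 318 and 207, 179 and 251. DKO 1 lay within the WT range for Mki67 and Top2a, and DKO 3 was the highest DKO mouse in all 3 genes, with limma adjusted p against WT of 0.397, 0.457 and 0.610. Summed over the list, the counts were 1686, 1460.4 and 1444 in WT, 5313, 6574 and 6600.2 in Pkd2 knockout and 1558, 2133 and 2823 in DKO. Of 24 DNA replication genes limma, edgeR and DESeq2 called 0, 1 was higher at an unadjusted p below 0.05, and the median was -0.13. Their means were lower in 20, and the groups of 4 were lower and of 2 higher without overlap.

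Markers of the thick ascending limb, which reabsorbs salt, had lower means in 15 of 16 members. Limma, edgeR and DESeq2 called 0 of them, while 12 were lower at an unadjusted p below 0.05 and the groups of 11 did not overlap; the median log2 fold change was -0.35. Umod, the urinary protein uromodulin, was 173515, 163265 and 171175 in WT and 96071, 130734 and 101468 in DKO. Egf, epidermal growth factor, was 105804, 103804 and 97547 and 63365, 82649 and 58239.6, and Slc12a1, the sodium-potassium-chloride cotransporter, was 79186, 78826 and 69505 and 58278, 63197 and 46588. DKO 2 was the highest DKO mouse in these 3 genes and still below every WT mouse, with log2 fold changes of -0.64 ± 0.17, -0.60 ± 0.13 and -0.45 ± 0.12 (limma adjusted p of 0.201, 0.128 and 0.199). The summed counts of the list were 406017, 391835 and 387258 in WT, 222791, 226432 and 188776 in Pkd2 knockout and 257635, 318481 and 245352 in DKO. The limb list had a median of -0.64 in Pkd2 knockout against WT, which shares the WT libraries with this comparison.

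**Figure D4:**
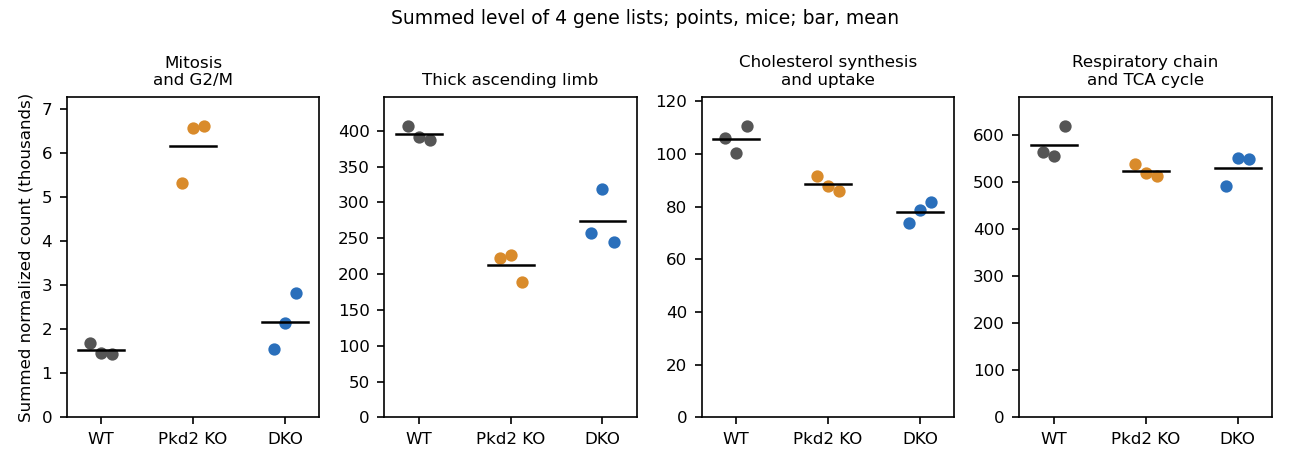
Summed normalized counts (axes from 0) of 4 gene lists in each mouse, with the group mean as a bar. In the mitosis list (1558 to 2823 in DKO against 1444 to 1686 in WT) DKO 1 lies within the WT range, and DKO 2 and DKO 3 lie above it. DKO mice lie below WT in the thick ascending limb and cholesterol lists. They overlap no WT mouse in the respiratory chain list, where the gap is small.

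Other segments showed smaller differences. Among 13 genes of the distal convoluted and connecting tubule 11 means were lower, and the groups of 5 were lower without overlap (median -0.21). Limma and edgeR called 0, 5 were lower at an unadjusted p below 0.05, and DESeq2 called 2 lower. Those 2 were the calcium-binding proteins Pvalb, at 1244, 410.2 and 1818 in WT and 245, 283 and 344 in DKO, and Calb1, at 19444, 16338 and 22565 and 9382, 13137 and 10457 (limma adjusted p of 0.183 and 0.128). All DKO mice were below all WT mice in both. Slc12a3, the thiazide-sensitive cotransporter, was 37754, 33364 and 26959 in WT and 31136, 31263 and 22312 in DKO, with overlapping groups. Of 12 principal cell genes limma, edgeR and DESeq2 called 0 and none was at an unadjusted p below 0.05 (median -0.16); the water channel gene Aqp2 was 11597, 11381 and 12279 in WT and 11404, 14226 and 7070.3 in DKO, DKO 3 being the lowest. Of 16 intercalated cell genes limma and edgeR called 0, 3 were higher at an unadjusted p below 0.05, and DESeq2 called 1, the homeobox factor gene Hmx2, at 213, 167 and 224 in WT and 367, 391 and 329.7 in DKO (limma adjusted p = 0.0569).

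Proximal tubule transporters had a median near 0, but more of them than of all genes were at an unadjusted p below 0.05, mostly higher. Of 39 transporters limma and edgeR called 0, with 10 higher and 4 lower at an unadjusted p below 0.05 and a median of 0.06. The groups of 8 were higher and those of 3 lower without overlap. Slc34a1, the main phosphate cotransporter, was 246650.0, 218360.0 and 229224 in WT and 236064, 260666 and 230637 in DKO, with overlapping groups. DESeq2 called 3 transporters: the lactate transporter gene Slc5a12, at 10426, 10789.5 and 12918 in WT and 17159.7, 28153 and 17796 in DKO, the sulfate transporter gene Slc13a1, at 11739, 10964 and 11699.6 and 14769.5, 19274 and 15023, and the citrate transporter gene Slc13a2, at 2057, 2676 and 2253 and 1776, 1818 and 1602. The first pair was higher in every DKO mouse and Slc13a2 lower in every DKO mouse, with limma adjusted p of 0.128, 0.124 and 0.225. In the megalin and cubilin uptake list 4 of 12 were higher at an unadjusted p below 0.05, and limma, edgeR and DESeq2 called 0. The groups of 4 were higher without overlap. Lrp2, megalin, was 156994, 153377 and 175939 in WT and 168195, 180233 and 183276 in DKO.

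Cholesterol synthesis genes had lower means in 18 of 22 members. Limma called 1, Sc4mol, DESeq2 called 2 and edgeR 0, 10 were lower at an unadjusted p below 0.05, and the groups of 10 did not overlap. Hmgcs1, the synthase that makes HMG-CoA early in the pathway, was 41597, 36702 and 36780.5 in WT, 43082, 35361 and 34998 in Pkd2 knockout and 22449, 25044 and 16098 in DKO. All 3 DKO mice were below the other 6, with a log2 fold change of -0.88 ± 0.16 (limma adjusted p = 0.0904). Cyp51, lanosterol demethylase, was 15106, 15109.7 and 15949 in WT and 7984, 8719.9 and 13387 in DKO, with DKO 3 closer to WT (adjusted p = 0.230). The list's median log2 fold change was -0.29, and its summed counts were 106171, 100429 and 110445 in WT and 73775, 78819 and 81633 in DKO.

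Respiratory chain and TCA cycle genes were slightly lower: 26 of 28 had lower means, by a median of -0.17 on the log2 scale, and the groups of 15 did not overlap. Limma and edgeR called 0, 11 were lower at an unadjusted p below 0.05, and DESeq2 called 1, the complex I subunit gene Ndufb8, at 6459.9, 6442 and 7029 in WT and 5001, 5441 and 5131 in DKO (limma adjusted p = 0.0833). Atp5b, the beta subunit of ATP synthase, was 114798, 114438 and 131489 in WT and 100927, 113143 and 119206 in DKO, with overlapping groups. The 7 tested mitochondrially encoded genes had a median of 0.00. Among cytochrome P450 genes limma and edgeR called 0 of 24, 2 were higher and 4 lower at an unadjusted p below 0.05, and DESeq2 called 2 lower. These were Cyp27b1, which makes active vitamin D, at 732, 1145 and 678 in WT and 293, 254 and 264 in DKO, and Cyp7b1, an oxysterol hydroxylase, at 13762, 12190.1 and 14122 and 6730.0, 6309 and 9157, with limma adjusted p of 0.167 and 0.0545. In both genes every DKO mouse was below every WT mouse.

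**Figure D5:**
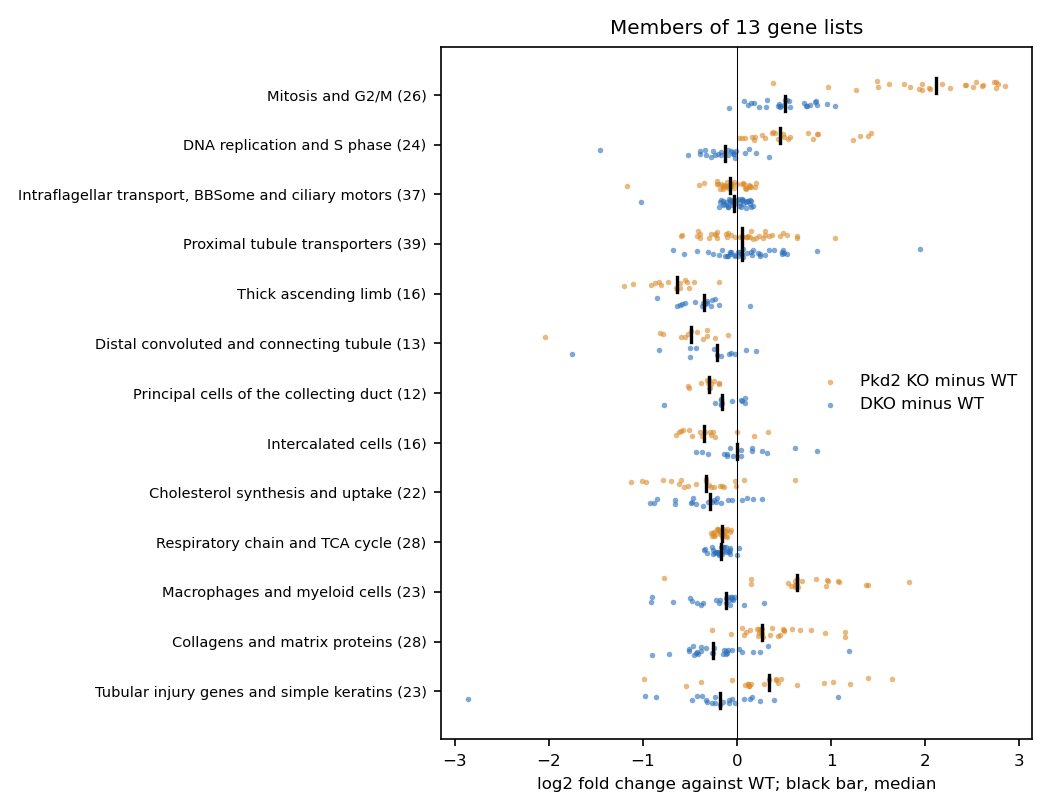
Log2 fold change against WT of the tested members of 13 gene lists (points; number of members in brackets), for Pkd2 knockout (orange) and DKO (blue), with each list's median as a black bar. Both comparisons use the same WT libraries; the DKO medians run from -0.35 (thick ascending limb) to 0.51 (mitosis).

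Genes of cilia and of signalling pathways tied to cilia had medians near 0. Of 37 intraflagellar transport, BBSome and ciliary motor genes limma, edgeR and DESeq2 called 0, 1 was lower at an unadjusted p below 0.05, and the median was -0.04. Dync2h1, the heavy chain of the retrograde ciliary motor, was 2651, 2548 and 2099.8 in WT and 2658, 2813 and 1970.3 in DKO, with overlapping groups. Of 15 Hedgehog pathway genes these tools called 0, 1 was lower at an unadjusted p below 0.05, and the median was -0.01; Smo, the signal-transducing receptor, was 2573, 2519.6 and 2173 and 2581, 2444 and 2184. Of 30 Wnt pathway genes limma and edgeR called 0, and the groups of 4 were lower without overlap. At an unadjusted p below 0.05, 3 were lower. DESeq2 called 1 of them, the ligand gene Wnt11, which was 68.3, 80.0 and 77.3 in WT, 16.9, 9.34 and 5.85 in Pkd2 knockout and 19.3, 13.6 and 10.5 in DKO (limma log2 fold change -2.33 ± 0.38, adjusted p = 0.0546). Every mutant mouse was below every WT mouse for Wnt11. Of 12 genes of the polycystins and their maturation these 3 tools called 0, 0 were at an unadjusted p below 0.05, and Pkhd1, which encodes fibrocystin, was 12552, 11988 and 11099.8 in WT and 10369, 11378 and 9891 in DKO.

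Among genes of inflammation, matrix and injury the medians of some lists were below 0 and those of others above. The 17 complement genes outside C1q had a median of 0.10 with 10 means higher, and the 25 interferon response genes 0.02 with 13 higher; limma, edgeR and DESeq2 called 0 in both. Of 23 macrophage and myeloid genes limma, edgeR and DESeq2 called 0, 2 were lower at an unadjusted p below 0.05, and 21 means were lower (median -0.12). Csf1r, the receptor that macrophages need, was 2948, 3197 and 3108 in WT and 3209, 3344 and 3183 in DKO, and Lyz2, lysozyme, was 563, 603 and 809 and 347, 206 and 574, lowest in DKO 2 (limma adjusted p of 0.685 and 0.391). Of 28 collagen and matrix genes these tools called 0, 1 was higher and 1 lower at an unadjusted p below 0.05, and the groups of 8 were lower without overlap (median -0.25). Col4a1, a chain of basement membrane collagen, was 8899, 9722 and 10881 in WT and 6331, 9725 and 11888 in DKO, with overlapping groups. Of 23 injury and keratin genes these tools called 0, 1 was higher and 3 lower at an unadjusted p below 0.05 (median -0.18). Of their means 17 were lower, and the groups of 6 were lower and of 1 higher without overlap. Clu, the secreted chaperone clusterin, was 8231, 7233 and 6171 in WT and 3862, 3548 and 4478 in DKO, all DKO mice being below all WT mice (log2 fold change -0.86 ± 0.22, limma adjusted p = 0.175). Among 25 cytokine and chemokine genes limma and edgeR called 0, and 3 were lower at an unadjusted p below 0.05. The groups of 4 were lower without overlap. DESeq2 called 1 lower, the chemokine gene Cxcl12, at 6540.3, 6494 and 7036 in WT and 5268, 4355 and 3826 in DKO (limma adjusted p = 0.0968).

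Blood and fat cells can be carried along in a kidney sample. For 7 erythroid genes the median change was -1.47 on the log2 scale, with 6 of 7 means lower, and their summed counts did not overlap, at 2196, 2179 and 2817 in WT and 1847, 2004 and 1887 in DKO. The most abundant member, Bpgm, had a DKO mean at 93.5% of its WT mean. The groups of 2 of the 7 members were lower without overlap, against 9.24% of all tested genes. The beta-globin gene Hbb-bs was 221, 184 and 607 in WT and 75.3, 208 and 42.2 in DKO, with overlapping groups. The 8 adipocyte genes had a median of -0.60, with 7 of 8 means lower and summed counts of 3064, 3837 and 2217 in WT and 1846, 2679 and 2699 in DKO. Summed counts of 19 lymphocyte genes, of which 15 were tested, were 3705, 2115 and 894 in WT and 4646, 521 and 8054 in DKO, with DKO 2 the lowest and DKO 3 the highest of the 6. Limma, edgeR and DESeq2 called 0 genes of these lists, and 1 lymphocyte gene was higher at an unadjusted p below 0.05. Of 9 adrenal and 6 skeletal muscle genes 1 each was abundant enough to be tested, Star (117, 141 and 101 in WT and 130.2, 114 and 109 in DKO) and Mylpf (42.2, 29.3 and 27.2 and 28.5, 19.9 and 19.2). The part of these cells in the differences between DKO and WT was not tested.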

How the data were processed

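Poly(A) RNA was sequenced from kidneys of 9 mice, 3 a group, grouped by the sample labels; the series states that replicates are biological. Per the submitters' processing notes, reads were aligned with STAR 2.5.0, counted per gene with HTSeq 0.6.1 and scaled with DESeq2. The use of strand, like genome build and annotation, is not given in the sources used here. Reads of a gene and of one that overlaps it, on either strand, may therefore be mixed. The deposited values are normalized counts, a signal scaled by the authors between libraries; 25 of 22161 row names had been turned into dates. One read was worth 0.906 to 1.13 in a library, and 100% of values were whole multiples of it within a tolerance of 0.05. From 7 libraries this gave 37056843 to 47314829 reads each. For WT 1 and KO 1 the value lay too near 1 to separate scaled from unscaled counts, so these 2 libraries entered no count test. The 5 pairs of replicates among these 7 libraries differed by more than counting noise (chi-square of 41.1 to 75.7 per degree of freedom); WT 1 and KO 1 were not compared in this way.

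All 9 libraries entered one limma model (limma 3.58.1, R 4.3.3) of log2(normalized count + 1) with 3 group means and an intensity trend, over genes with a mean of at least 10, tested two-sided with Benjamini-Hochberg adjustment at 0.05. The scale understates the change of low genes, and the procedure was tested on simulated data. The comparisons of the 3 groups share libraries, so values given side by side are not independent. Alternatives included other pseudocounts, filters and scalings, each library left out, and count tests on the 7 libraries with edgeR (4.0.16) and with DESeq2 (1.42.0); limma on those 7 libraries was added after the data were seen. The comparison, the 54 gene lists (1022 members, 12 not in the table, 966 tested) and their tests were chosen with earlier results of these data known. Named genes are the targeted genes; the 15 largest called rises and falls at most, taken from genes with separate groups and a mean from 50 up, leaving out clone and model names, pseudogenes and sex-linked genes; called members and the most abundant uncalled member of lists with at least 2 called members or 10% called; and up to 3 abundant members of other lists. Chromosomes and gene order came from RefSeq, which matched 98.9% of tested genes and may not be the authors' annotation; promoter sequences came from RefSeq on GRCm38.p6. Without molecular identifiers, reads are not separate molecules, and Poisson intervals cover counting error only.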

Additional observations from a re-analysis of the deposited data

How the results depend on the processing

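The count of called genes (36, with 12 higher and 24 lower) was 31 to 41 with pseudocounts of 0.1 and 10, no filter, a mean of at least 50, TMM factors or quantile scaling. It was 24 (7 higher) without the intensity trend, 25 (7 higher) with WT and DKO libraries only, and 8 (1 higher, 7 lower) when a log2 fold of at least 1 was required. Array quality weights gave 295, 144 higher and 151 lower. edgeR on 7 libraries called 10 (3 higher, 7 lower), DESeq2 on the same libraries 111 (47 higher, 64 lower), and limma on them 11 (4 higher, 7 lower); these fits hold fewer samples, and the cause of the difference between tools was not tested. Leaving out 1 library gave 18 to 58 calls, 4 to 24 higher and 13 to 34 lower, with the fewest without WT 1 or DKO 1 and the most without WT 3. A replicate block gave 20 calls, 6 higher and 14 lower, all among the 36. Same-numbered WT and DKO mice had correlations of 0.215, 0.0186 and 0.109 between their deviations from the group means, and 4 of 6 libraries matched their own number best. These values do not decide whether same-numbered mice belong together, and replicate number was not a block in the main fit. In 824 pairs of a called gene and a setting no direction reversed. With 3 mice a group, a gene needs a difference far above the spread between mice to pass, and a gene that missed the threshold is not shown to be unchanged. Genes with few reads in a group have fold changes that depend on the pseudocount.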

Other observations

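Some genes missed the threshold with all libraries and passed without WT 3. Those below, of iron and heme handling, protein modification and the cytoskeleton, were each chosen after their values were seen. Such a choice favours genes in which WT 3 departs from WT 1 and WT 2, so that departure is no separate observation. Tfrc, the transferrin receptor, was 8444, 7807 and 6587 normalized counts in WT and 5107, 5083 and 5296 in DKO, all DKO mice being below all WT mice (limma adjusted p = 0.0850; 0.0230 without WT 3). Abcb10, a mitochondrial transporter that aids heme synthesis, was 4189, 4321 and 1640.4 in WT, 1904, 1910.0 and 1970.0 in Pkd2 knockout and 2114, 1860.3 and 1646 in DKO, with WT 3 at the level of the mutants (adjusted p = 0.408; 0.00489 without WT 3). Padi2, which converts arginine to citrulline in proteins, was 340.5, 302 and 55.5 in WT and 75.3, 72.5 and 58.5 in DKO (adjusted p = 0.399; 0.00687 without WT 3). Lmod1, a smooth muscle actin nucleator, was 136, 142 and 499 in WT, 122, 187 and 76.0 in Pkd2 knockout and 526, 790.2 and 755 in DKO, again with WT 3 apart from WT 1 and WT 2 (adjusted p = 0.252; 0.0458 without WT 3). Sorbs3, the adhesion protein vinexin, was 1704, 1854 and 895 in WT, 1363, 1257 and 1572 in Pkd2 knockout and 622, 739 and 559.6 in DKO (adjusted p = 0.130; 0.00642 without WT 3). In 33 genes of this kind the call appeared without WT 3, and why this mouse differs was not tested.

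Some single genes differed between mice of 1 genotype by more than between genotypes. BC018473 was 6.03, 2911 and 0 in WT, 3611, 2144 and 0.975 in Pkd2 knockout and 2081, 8181 and 0.958 in DKO, abundant in 5 mice and almost absent in 4. Fosb, an immediate early gene, was 131, 3153 and 1146 in WT, 345, 42.1 and 6503 in Pkd2 knockout and 29.5, 1067 and 71.9 in DKO. Mcm6, a replication helicase subunit, was 997, 1101 and 181 in WT, 1289, 1557 and 1511 in Pkd2 knockout and 90.6, 104 and 999.5 in DKO, and Ccl28, a chemokine, was 6175, 5200.4 and 1243, 9661, 6783 and 2996 and 811, 667 and 4381. WT 3, DKO 1 and DKO 2 were the lowest 3 mice for Mcm6. These 4 genes did not pass (limma adjusted p against WT of 0.782, 0.657, 0.587 and 0.565).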
